A study of Mus musculus with 36 samples.

Results

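The genes described here carry the names of the eukaryotic translation initiation factors. Most of these proteins bring the ribosome, the initiator tRNA and the mRNA together at the start codon. Some of the genes encode repressors or proteins with other roles, such as Eif4ebp2, Eif4enif1, Eif4a3 and Eif6. All of the genes are called initiation factors here. They were picked by a rule on gene names, and the set was chosen with earlier results of these data known. Of 20817 gene symbols in the count table, 55 start with the initiation factor prefix and a digit, and 48 of these were kept. The 7 left out are genes of eIF5A, kinases of eIF2 and 1 gene of an eIF4E-binding protein. Of the 48, 46 passed the filter on low counts and were tested, while Eif2s3y, the copy of eIF2 gamma on the Y chromosome, and Eif4e1b, a cap-binding protein known from oocytes, had 0 counts in all 18 libraries. A library's floor of 3 counts corresponded to between 0.214 and 0.361 CPM (counts scaled to a common library size), which is the level up to which such genes could go unseen.

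RNA was sequenced from splenic CD4+ T cells of 3 wild-type C57BL/6 animals. Naive CD44- CD62L+ CD25- cells were activated for 68 h on plates coated with anti-CD3 and anti-CD28, each at 1 µg/ml. For the pathogenic Th17 lineage (Th17p) the medium held 25 ng/ml IL-6 together with 20 ng/ml of both IL-1b and IL-23. The non-pathogenic one (Th17n) had 25 ng/ml IL-6 and 2 ng/ml TGFb1, and the induced regulatory lineage (iTreg) had 2 ng/ml TGFb1 as its only added cytokine. Each culture was kept either with vehicle or with 100 µM DFMO, an irreversible inhibitor of ornithine decarboxylase, the enzyme that starts polyamine synthesis. The 6 groups therefore hold 3 libraries each, 1 per animal, and each library was sequenced in 2 runs that were summed. The sources used here do not give age or sex. Live cells were sorted, with no lineage marker named for that sort, so a library averages the living cells of its culture.

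Library depth ranged from 8307662 to 13986943 counts. The CD4 T cell markers Cd3e, Cd3d and Cd4 summed to between 600.3 and 935 CPM, while NK cell markers reached at most 0.0919 CPM and myeloid markers 5.14 CPM, with Lyz2 at 0 throughout. In Th17n the CD4 T cell markers summed to between 805 and 858 CPM with vehicle and between 600.3 and 644 CPM with DFMO. In iTreg they went the other way, between 760.4 and 767.8 CPM with vehicle and between 802 and 935 with DFMO. In Th17p they lay between 737 and 832 CPM and between 718 and 754, which overlapped. The 2 Treg markers summed to between 1451 and 1539.6 CPM in Th17p with vehicle and between 965 and 1046 with DFMO. In Th17n the sums lay between 1779 and 2037 CPM with vehicle and between 1534 and 1910 with DFMO. In iTreg they lay between 1427 and 1869 CPM and between 1397 and 1493, so these markers did not set iTreg above Th17n. Markers of other cells were low but fell with DFMO in places: in Th17n, B cell markers lay between 4.64 and 8.53 CPM with vehicle and between 1.27 and 3.17 with DFMO, myeloid markers between 1.86 and 4.90 and between 0.461 and 0.725, and CD8 markers between 13.7 and 20.8 and between 7.95 and 13.4. In Th17p, myeloid markers lay between 2.86 and 5.14 CPM with vehicle and between 0.894 and 1.36 with DFMO, and B cell markers between 2.09 and 6.39 and between 1.13 and 2.12, which overlapped. In iTreg, B cell markers lay between 13.1 and 15.5 CPM with vehicle and between 14.6 and 23.4 with DFMO, and CD8 markers between 17.1 and 20.1 and between 13.3 and 16.0. The part of these markers in the results on initiation factors was not tested, and in such bulk libraries fewer cells of a type and less RNA per cell cannot be told apart.

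Initiation begins when eIF2 loads the initiator tRNA onto the small ribosomal subunit, helped by eIF1, eIF1A, eIF5 and the many-subunit eIF3. The cap-binding protein eIF4E, the scaffold eIF4G and the helicase eIF4A form eIF4F, which recruits this complex to capped mRNA, and eIF5B then joins the large subunit. Activated T cells are known to raise protein synthesis strongly, and polyamines are known to act on translation, for which these genes supply the machinery.

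The upstream sequence of the 3 eIF4F genes is shown because all 3 mRNAs rose with DFMO in every lineage and all 3 carry the same short motif. They were picked with both of these known. Of the 3, Eif4e alone was called as higher in all 3 lineages under every alternative processing tried. The iTreg calls of Eif4a1 and Eif4g1 were lost under several alternatives, as given below with each gene. RefSeq promoter windows of 250 bases before the start (build GRCm38.p6) were found for 37 of the 48 genes, as 44 windows. The motif is the E-box CACGTG, known as a binding sequence of the Myc family, which reads the same on both strands and is printed in capitals. Of the 2 Eif4e windows, a single window holds it, in 2 places, at chr3:138527018-138527137 and chr3:138527147-138527266 on the plus strand. The Eif4a1 stretch lies at chr11:69672550-69672669 on the minus strand and the Eif4g1 stretch at chr16:20672607-20672726 on the plus strand. The Eif4e and Eif4g1 stretches lie before a RefSeq start but inside the wider gene span that the annotation used for gene positions gives.
Eif4e, distal: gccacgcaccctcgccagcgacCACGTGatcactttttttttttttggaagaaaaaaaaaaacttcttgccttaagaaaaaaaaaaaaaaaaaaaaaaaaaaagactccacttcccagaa
Eif4e, proximal: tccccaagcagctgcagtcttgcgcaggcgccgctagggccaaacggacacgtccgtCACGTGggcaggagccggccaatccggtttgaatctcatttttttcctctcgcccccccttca
Eif4a1: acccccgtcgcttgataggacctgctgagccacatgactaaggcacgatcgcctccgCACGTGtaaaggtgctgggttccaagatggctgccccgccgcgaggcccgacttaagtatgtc
Eif4g1: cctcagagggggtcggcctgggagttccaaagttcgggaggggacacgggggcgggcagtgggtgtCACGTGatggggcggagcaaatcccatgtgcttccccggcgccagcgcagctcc

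The E-box stood in 7 of the 44 windows (15.9%), against 6.02% of all 32851 windows of the same length. The 7 genes are Eif4e, Eif4a1, Eif4g1, Eif4h, Eif3k, Eif3f and Eif1b. Eif4h rose in Th17n and iTreg, Eif3k and Eif1b rose in iTreg, and Eif3f passed the test in none of the lineages, so the motif was present in genes with differing responses. The C/EBP-ATF element TGATGNAA, searched on both strands, was found in 1 window (2.27%), that of Eif2s3x, against 3.45% of all windows. A match is a description of these letters, and no binding was measured.

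Levels between genes were compared in TPM, the length-scaled share of transcripts, over the 9 vehicle libraries (mean ± SD, n = 9). Eif1, the start codon gatekeeper, was the most abundant at 600 ± 68.4 TPM, ahead of the eIF3 subunits Eif3h at 499.8 ± 32.1 and Eif3i at 415 ± 20.4. Eif3m, Eif3e and Eif3k followed at 356 ± 16.5, 354 ± 16.8 and 351 ± 28.1 TPM and did not differ beyond their spread. Of the eIF4F subunits, the helicase Eif4a1 stood at 307 ± 49.9 TPM, the cap-binding Eif4e at 94.2 ± 9.41 and the scaffold Eif4g1 at 26.9 ± 5.50. At the low end were Eif4g3 at 8.43 ± 1.67, Eif4ebp3 at 4.51 ± 1.46 and Eif3j2 at 0.793 ± 0.488 TPM. The 48 genes together held 6514 ± 359 TPM in Th17p with vehicle and 7849.6 ± 325 with DFMO (SD, n = 3), and 6157 ± 385 and 7612 ± 239.7 in Th17n. In iTreg the sums were 6558, 6337 and 6720.2 with vehicle and 6457, 7516 and 7355 with DFMO, where the groups overlapped, while in both Th17 lineages all 3 DFMO libraries lay above all vehicle libraries. The listed genes held 74.7% to 77.5% of the TPM scale in Th17p with vehicle and 79.4% to 80.5% with DFMO. In Th17n they held 73.1% to 75.1% and 76.9% to 78.0%, and in iTreg 72.4% to 75.1% and 74.7% to 77.8%. The part of this share in the sums was not tested. The overlap of the sums in iTreg depends on the measure. Summed CPM in iTreg was 11889, 11745 and 11830 with vehicle and 13851, 15102.5 and 14803 with DFMO, without overlap, as in both Th17 lineages. CPM carries the scaling factors, which in iTreg were 1.07 to 1.09 with vehicle and 0.957 to 0.969 with DFMO.

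DFMO raised the mRNA of many initiation factors in each lineage and lowered few. In Th17p, 21 of the 46 tested rose and 2 fell, where 15.9% of all 11526 tested genes rose and 17.1% fell. In Th17n, 24 rose and 5 fell, against 22.8% and 23.7% of all genes. In iTreg, 21 rose and 3 fell, against 18.3% and 19.2%. The median log2 fold change of the 46 was 0.22 in Th17p, 0.30 in Th17n and 0.20 in iTreg, where that of all genes was 0, -0.02 and -0.04. Throughout, a gene is said to have risen or fallen when edgeR's quasi-likelihood test, with Benjamini-Hochberg adjustment over all genes tested, gave an adjusted p under the threshold of 0.05.

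The iTreg balance depends on the scaling between libraries. Without scaling factors the median of all genes in iTreg moved to -0.21 and 16 initiation factors rose and 7 fell, with a median of 0.04. On log2(TPM + 1) values in limma the median of all genes was -0.19, and 12 rose and 8 fell with a median of -0.01, so the sign of the median turned.

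Rises shared by all 3 lineages were spread over the complexes. The 14 genes that rose in each lineage were Eif1, Eif1a, Eif1ad, Eif2b1, Eif2s3x, Eif3g, Eif3i, Eif3l, Eif4a1, Eif4a3, Eif4b, Eif4e, Eif4g1 and Eif4g2. They make up 30.4% of the 46, beside 8.57% of all genes that rose in all 3 lineages. Eif3m and Eif4e3 fell in all 3, which is 4.35% of the 46 beside 8.25% of all genes. A further 6 (Eif3a, Eif3b, Eif4a2, Eif4enif1, Eif4h and Eif6) rose in 2 lineages and 11 rose in 1. Eif2a, Eif2d and Eif3c fell in 1 lineage each, Eif3h rose in one and fell in another, and 9 passed the test in no lineage. Under every alternative setting tried, Eif1, Eif2b1, Eif2s3x, Eif3l, Eif4b and Eif4e rose and Eif3m and Eif4e3 fell in all 3 lineages. The count of 14 became 9 without scaling factors, 8 on either TPM scale, 8 without animal 2 and 7 without animal 3, and Eif3m and Eif4e3 remained called as lower each time. The lineages were cultured from the same 3 animals.

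**Figure D1:**
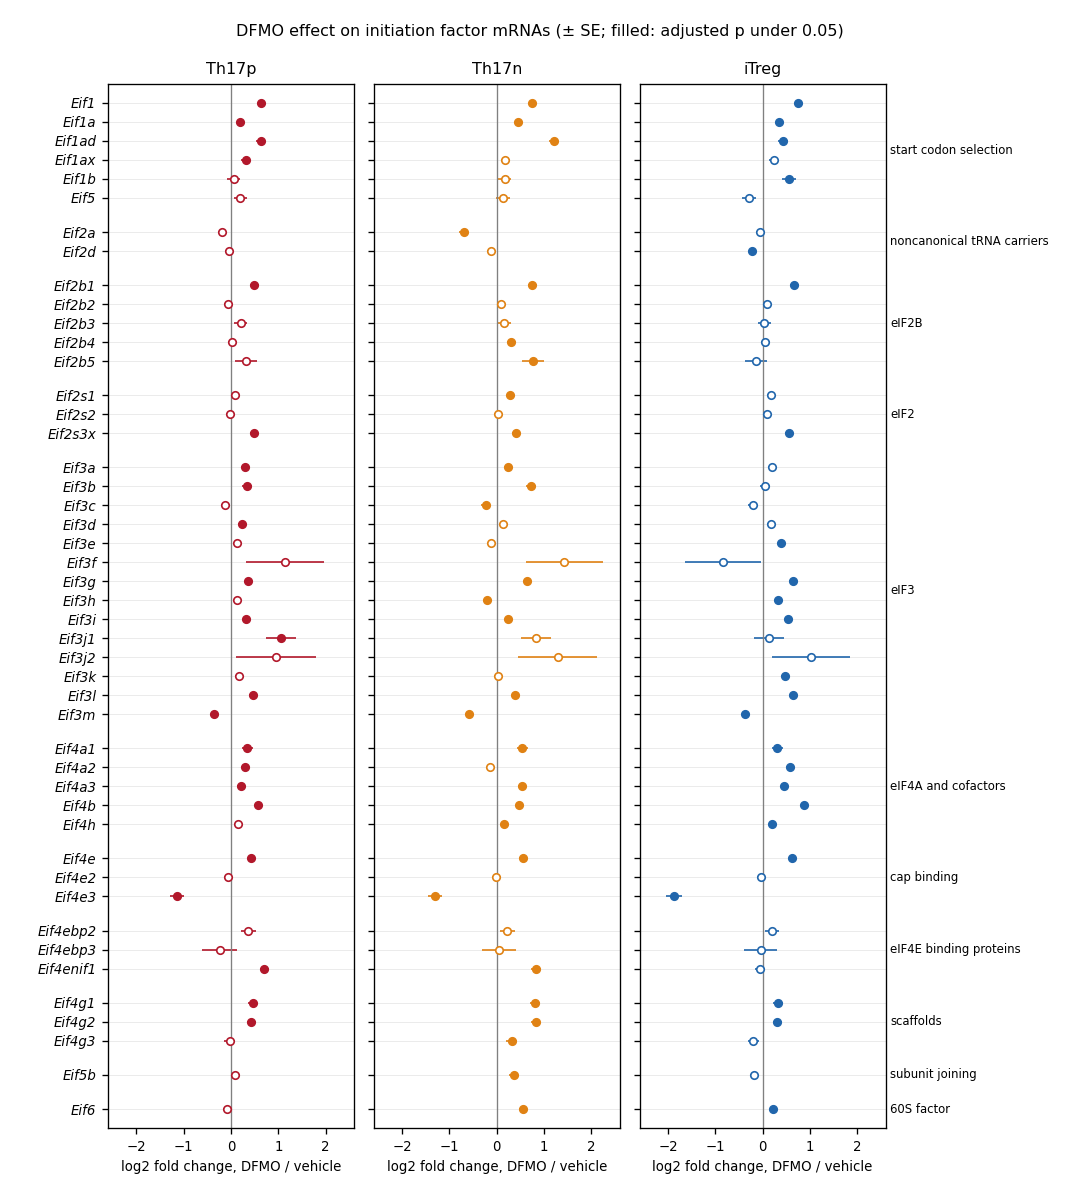
Log2 fold change of DFMO over vehicle (horizontal axis) for the 46 tested initiation factors, grouped by complex, in Th17p, Th17n and iTreg. Points are edgeR estimates from 3 animals a group, bars are approximate standard errors, and filled points have an adjusted p under 0.05. Most filled points lie right of 0 in each lineage, and Eif4e3 lies farthest left in all 3.

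In what follows, library values are in the order of animals 1, 2 and 3, vehicle before DFMO, and log2 fold changes are in the order Th17p, Th17n and iTreg. Counts of a complex stand beside the shares of all genes that rose, 15.9%, 22.8% and 18.3%, and that fell, 17.1%, 23.7% and 19.2%. The 6 genes grouped under start codon selection include Eif1ad by its eIF1A domain. Of the 6, 4 rose in Th17p, 3 in Th17n and 4 in iTreg. Eif1 (chr11:100319885-100322096 in GRCm38), which keeps the scanning ribosome from starting at wrong codons, had 734, 717 and 707 CPM in the Th17p vehicle libraries and 1114, 1110.2 and 1112 with DFMO. In Th17n the values were 608, 633 and 616 with vehicle and 1072, 955 and 1073 with DFMO, and in iTreg 677, 625 and 653 and 1057, 1071 and 1154. Every DFMO library was above every vehicle library of any lineage. The log2 fold changes were 0.63 ± 0.06, 0.74 ± 0.06 and 0.75 ± 0.06 in Th17p, Th17n and iTreg (adjusted p = 3.02e-07, 8.76e-09 and 1.66e-08). Reads may be shared with other annotated genes such as Eif1-ps1, in which 25.6% of the 75-base windows of its transcript recur.

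Eif1ad (chr19:5366741-5371526), which encodes an eIF1A-domain protein, rose most in Th17n. Its CPM went from 50.2, 61.6 and 61.1 to 128, 146 and 125 in Th17n, from 69.5, 78.9 and 79.9 to 111, 115 and 127 in Th17p and from 104, 91.8 and 89.4 to 119.8, 135 and 131 in iTreg. The groups did not overlap in any lineage, and the vehicle level was lowest in Th17n and highest in iTreg. Log2 fold changes came to 0.63 ± 0.10, 1.20 ± 0.10 and 0.44 ± 0.10 in Th17p, Th17n and iTreg (adjusted p = 6.06e-05, 7.31e-09 and 0.00146). On either TPM scale and without animal 2 the iTreg change did not pass the test. Eif1ad shares 14.3% of its 75-base windows with the neighbouring gene Banf1.

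Eif1a and Eif1ax both encode eIF1A, the partner of eIF1 in scanning. Eif1a had 287, 326 and 301 CPM in Th17p with vehicle, 192, 197 and 194 in Th17n and 167, 186 and 189.9 in iTreg, and the Th17p vehicle libraries lay above those of the other lineages. With DFMO its CPM was 352, 342 and 348, 271, 269.7 and 261 and 224, 234 and 232 in the same order. Expressed as log2 fold changes, these were 0.19 ± 0.07, 0.46 ± 0.07 and 0.34 ± 0.07 (adjusted p = 0.0353, 1.06e-05 and 0.000371), and of the 13 alternatives the replicate block alone kept the Th17p call, while the iTreg call was lost on either TPM scale. Eif1ax rose by 0.31 ± 0.09 in Th17p (adjusted p = 0.0135), which was lost without animal 1 or 3, with 0.18 and 0.23 in Th17n and iTreg, and an adjusted p with the replicate block of 0.0255 in iTreg against 0.0514 without it. Eif1b, the close relative of Eif1, rose in iTreg (0.56 ± 0.14, adjusted p = 0.00356) and stood at 0.06 and 0.17 in Th17p and Th17n, and the iTreg call was lost without animal 2 or 3. Eif5, the GTPase-activating protein of eIF2, had log2 fold changes of 0.20, 0.14 and -0.28, and its Th17p vehicle libraries spread from 235 to 387 CPM.

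The eIF2 complex carries the initiator tRNA, and eIF2B recharges it with GTP. Its gamma subunit Eif2s3x (chrX:94188707-94212862) had 390.4, 387 and 398 CPM in Th17p with vehicle and 502, 626 and 515 with DFMO. The Th17n values were 427, 400.1 and 474 and 549, 588 and 591, and the iTreg values 382, 395 and 385 and 500.3, 617 and 588. All DFMO libraries exceeded the vehicle libraries of their lineage, with log2 fold changes of 0.48 ± 0.09, 0.41 ± 0.09 and 0.55 ± 0.09 (adjusted p = 0.000243, 0.000655 and 4.32e-05). Of its transcript, 35.7% of 75-base windows recur in Eif2s3x-ps1 or another gene. The alpha subunit Eif2s1 rose in Th17n (0.28 ± 0.07, adjusted p = 0.00340) and had 0.08 and 0.17 in Th17p and iTreg, and the beta subunit Eif2s2 had -0.02, 0.01 and 0.09 and passed in no lineage. The 3 subunits thus differed in response, and the median of the 3 in iTreg, 0.17, turned to -0.04 on a TPM scale.

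In eIF2B, 1 of 5 subunit genes rose in Th17p, 3 in Th17n and 1 in iTreg, where 15.9%, 22.8% and 18.3% of all genes rose, so the counts of 1 are near the background. Eif2b1 (chr5:124570213-124579131), the alpha subunit of the regulatory core, had 85.3, 100 and 82.9 CPM in Th17p with vehicle and 129, 130.0 and 119 with DFMO, 72.4, 75.5 and 74.1 and 126, 125 and 121 in Th17n, and 95.2, 78.6 and 77.9 and 126, 146 and 127 in iTreg. The groups were apart in all 3 lineages, with log2 fold changes of 0.49 ± 0.09, 0.74 ± 0.09 and 0.67 ± 0.09 (adjusted p = 0.000379, 1.63e-06 and 1.08e-05). Eif2b4 and Eif2b5, the catalytic epsilon subunit, rose in Th17n (0.31 ± 0.09 and 0.76 ± 0.24, adjusted p = 0.0108 and 0.0141), and both calls were lost without animal 1. Eif2b2 and Eif2b3 passed in no lineage and had log2 fold changes between -0.06 and 0.20. The eIF2B median in iTreg, 0.06, turned to -0.13 on a TPM scale.

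Eif2a and Eif2d encode proteins that can deliver tRNA to the ribosome without eIF2. Eif2a (chr3:58525821-58557501) had 261, 260.3 and 267 CPM in Th17n with vehicle and 159, 165 and 161 with DFMO. In Th17p it had 181, 178 and 186 and 176, 162 and 137, and in iTreg 179, 194 and 173 and 152, 190.3 and 182. The Th17n vehicle libraries stood above all 15 others, and with DFMO the 3 lineages overlapped. In edgeR the log2 fold changes were -0.20 ± 0.09, -0.70 ± 0.09 and -0.06 ± 0.09 (adjusted p = 0.0995, 1.83e-06 and 0.646), so it fell in Th17n. Eif2d fell in iTreg (-0.21 ± 0.08, adjusted p = 0.0483), a call that was lost when any 1 animal was left out and under 4 of the other alternatives.

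The 14 genes of eIF3, the scaffold of the small subunit complex, had calls in both directions. In Th17p 7 rose and 1 fell, in Th17n 5 rose and 3 fell, and in iTreg 6 rose and 1 fell, with medians of 0.31, 0.24 and 0.26. Of all genes, 15.9%, 22.8% and 18.3% rose and 17.1%, 23.7% and 19.2% fell. The falls in eIF3 are thus near or below the shares of all genes. Under the alternatives the iTreg median went as low as 0.04, while those of Th17p and Th17n went no lower than 0.27 and 0.22. Eif3m (chr2:104999656-105017080), a subunit of the PCI and MPN domain core, was the member that fell throughout. Its CPM was 394, 389 and 394 in Th17p with vehicle and 327, 287 and 302 with DFMO, 450.1, 427 and 426 and 290.3, 292 and 280.5 in Th17n, and 371, 385 and 387 and 287, 313 and 289 in iTreg. All 9 DFMO libraries lay below all 9 vehicle libraries. This gave log2 fold changes of -0.36 ± 0.06, -0.60 ± 0.06 and -0.36 ± 0.06 (adjusted p = 0.000204, 2.22e-07 and 0.000145), and 21.9% of its 75-base windows recur in Ccdc73 or Gm7658.

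Eif3l, another subunit of the same core, moved the opposite way. It had 405, 363 and 365 CPM in Th17p with vehicle and 544, 515 and 499 with DFMO, 390.3, 405 and 386 and 514, 515 and 519 in Th17n, and 399, 368 and 329 and 552, 622 and 542 in iTreg, with no overlap within a lineage. The log2 fold changes were 0.46 ± 0.08, 0.39 ± 0.08 and 0.65 ± 0.08 (adjusted p = 9.15e-05, 0.000250 and 1.19e-06). The ratio of Eif3m to Eif3l in TPM was 1.72 ± 0.105 in Th17p with vehicle and 0.970 ± 0.0436 with DFMO (SD, n = 3). In Th17n it was 1.82 ± 0.0840 and 0.920 ± 0.0237, and in iTreg 1.73 ± 0.206 and 0.855 ± 0.0230. Within each library a ratio does not depend on scaling, and here it was at most 0.998 in the 9 DFMO libraries and at least 1.53 in the 9 vehicle libraries.

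Eif3g and Eif3i, subunits of the module that also holds Eif3b, rose in all lineages with log2 fold changes of 0.37, 0.65 and 0.64 for Eif3g and 0.32, 0.24 and 0.55 for Eif3i in Th17p, Th17n and iTreg. Without animal 3 the Th17p call of Eif3g and the Th17n call of Eif3i were lost. Eif3b rose in Th17p (0.34 ± 0.11, adjusted p = 0.0172) and Th17n (0.72 ± 0.11, adjusted p = 1.02e-05) and had 0.05 in iTreg, and the Th17p call was lost without animal 1 or 3. Eif3a, which holds the core together, rose in Th17p and Th17n (0.29 and 0.24), and its iTreg value of 0.19 passed with the replicate block (adjusted p = 0.0258) but not without it (0.0896). Eif3d, a subunit that can itself bind caps, rose in Th17p (0.23, adjusted p = 0.0184), and its iTreg value of 0.17 had an adjusted p of 0.0491 with the block and 0.0718 without it. The Th17n calls of Eif3a and Th17p calls of Eif3d were lost when any 1 animal was left out, and the Th17p call of Eif3a without animal 1 or 2. Eif3e and Eif3k rose in iTreg (0.39 and 0.47, adjusted p = 6.35e-05 and 0.000135) and had -0.11 and 0.02 in Th17n. Eif3h rose in iTreg (0.33 ± 0.07, adjusted p = 0.000412) and fell in Th17n (-0.22 ± 0.06, adjusted p = 0.00962). Eif3c fell in Th17n (-0.23 ± 0.09, adjusted p = 0.0425), and its iTreg value of -0.21 had an adjusted p of 0.0817 without and 0.0263 with the block. The Eif3c call was lost when any 1 animal was left out, that of Eif3h in Th17n without animal 1 or 2, and both calls of Eif3h on either TPM scale.

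Eif3j1 (chr2:122028546-122056598), a loosely held subunit that helps load mRNA and recycle the ribosome, had 42.2, 65.6 and 63.2 CPM in Th17p with vehicle and 111, 92.2 and 151 with DFMO. In Th17n it had 53.7, 62.9 and 76.8 and 109, 83.3 and 150.1, and in iTreg 74.1, 71.0 and 101 and 76.7, 59.3 and 135. It rose in Th17p by 1.05 ± 0.32 on the log2 scale (adjusted p = 0.0241), a call lost without animal 1. Its values in Th17n and iTreg were 0.82 ± 0.32 and 0.14 ± 0.32, and the Th17n value had an adjusted p of 0.0517 without and 0.00178 with the block. Eif3j1 shares 51.0% of its 75-base windows with other genes, its copy Eif3j2 among them, and Eif3j2 shares 87.4%, so reads could be split between them. Eif3j2 had at most 8.15 CPM and passed in no lineage.

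Of the 5 helicases and cofactors, 4 rose in Th17p, 4 in Th17n and 5 in iTreg. Eif4b (chr15:102073773-102097173), which stimulates the eIF4A helicase and is a target of the mTOR pathway, had 608, 577 and 634 CPM in Th17p with vehicle and 863, 982 and 853 with DFMO. In Th17n it had 620.4, 637 and 716 and 906, 938 and 908, and in iTreg 581, 569 and 558 and 1007, 1103 and 1030.4. Every DFMO library exceeded every vehicle library. Log2 fold changes came to 0.57 ± 0.07, 0.48 ± 0.07 and 0.88 ± 0.07 (adjusted p = 4.43e-06, 1.22e-05 and 1.24e-08).

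The helicase paralogues Eif4a1 and Eif4a2 differed. Eif4a2 (chr16:23107444-23114136) had 466, 448 and 491 CPM in Th17p with vehicle and 586, 585 and 542 with DFMO, and 343, 445 and 395 and 553, 625 and 578 in iTreg. In Th17n it had 671, 660.0 and 651 with vehicle, the highest of all groups, and 593, 617 and 591 with DFMO. Expressed as log2 fold changes, these were 0.28 ± 0.08, -0.14 ± 0.08 and 0.57 ± 0.08 (adjusted p = 0.00848, 0.162 and 9.22e-06), and the Th17p call was lost without animal 2. Eif4a1 (chr11:69666936-69672423) rose by 0.34 ± 0.12, 0.53 ± 0.12 and 0.31 ± 0.12 (adjusted p = 0.0309, 0.00102 and 0.0448), and its iTreg call was lost under 10 of the 13 alternatives, its Th17p call under 3, leaving out animal 2 among them. In iTreg with vehicle Eif4a1 had 744, 533 and 466 CPM, so animal 1 stood above the others and above 2 of the DFMO libraries. The ratio of Eif4a2 to Eif4a1 in TPM was 0.903 ± 0.00773 in Th17n with vehicle and 0.554 ± 0.0263 with DFMO, and 0.567 ± 0.0375 and 0.561 ± 0.0355 in Th17p. In iTreg with vehicle the libraries had 0.312, 0.585 and 0.598, and with DFMO 0.585, 0.571 and 0.579. The 2 genes share no 75-base window with each other, but 62.9% of Eif4a1 windows recur in Eif4a-ps4 or 3 other annotated genes. Eif4a3, the helicase of the exon junction complex, rose by 0.20, 0.53 and 0.46, with a Th17p adjusted p of 0.0437 that fell under the threshold in 2 of the 13 alternatives, the replicate block and leaving out animal 1. Eif4h, a cofactor like Eif4b, had 0.14, 0.16 and 0.20 and rose in Th17n and iTreg (adjusted p = 0.0467 and 0.0172), but its iTreg value was -0.02 on both TPM scales. The Eif4h calls were lost without animal 2 or 3 in both lineages and without animal 1 in Th17n.

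The cap-binding genes split. Eif4e (chr3:138526179-138559696), the cap-binding subunit of eIF4F, had 260.0, 287 and 312 CPM in Th17p with vehicle and 385, 375 and 393 with DFMO, 277, 280.3 and 297 and 402, 418 and 427 in Th17n, and 271, 257 and 260.1 and 393, 429 and 393 in iTreg. All 9 DFMO libraries lay above all 9 vehicle libraries, and the log2 fold changes were 0.42 ± 0.07, 0.55 ± 0.07 and 0.62 ± 0.07 (adjusted p = 9.55e-05, 2.08e-06 and 7.37e-07). Eif4e3 (chr6:99625135-99666771), an atypical relative of Eif4e, moved in the opposite direction. It had 84.7, 67.2 and 68.1 CPM in Th17p with vehicle and 38.7, 27.4 and 34.1 with DFMO, 90.3, 93.2 and 96.3 and 39.2, 40.6 and 33.9 in Th17n, and 36.9, 38.3 and 42.1 and 13.4, 11.2 and 7.68 in iTreg. Vehicle and DFMO libraries did not overlap within a lineage, and the iTreg vehicle libraries overlapped the Th17 libraries with DFMO. In edgeR the log2 fold changes were -1.14 ± 0.15, -1.30 ± 0.15 and -1.88 ± 0.17 (adjusted p = 8.43e-06, 5.16e-07 and 2.75e-08), the largest decreases of any tested initiation factor in each lineage.

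The ratio of Eif4e3 to Eif4e in TPM fell from 0.301 ± 0.0679 to 0.101 ± 0.0158 in Th17p (SD, n = 3), from 0.380 ± 0.00578 to 0.106 ± 0.0120 in Th17n and from 0.173 ± 0.0147 to 0.0309 ± 0.00842 in iTreg. No DFMO library reached the lowest vehicle library of its lineage. Eif4e2, a cap-binding protein linked to repression of translation, had log2 fold changes of -0.07 ± 0.09, -0.01 ± 0.09 and -0.04 ± 0.09 and passed in no lineage. Its ratio to Eif4e in TPM was 0.641 ± 0.0852 and 0.456 ± 0.0374 in Th17p with vehicle and DFMO, 0.563 ± 0.0699 and 0.376 ± 0.0337 in Th17n, and 0.711 ± 0.0341 and 0.437 ± 0.0173 in iTreg.

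**Figure D2:**
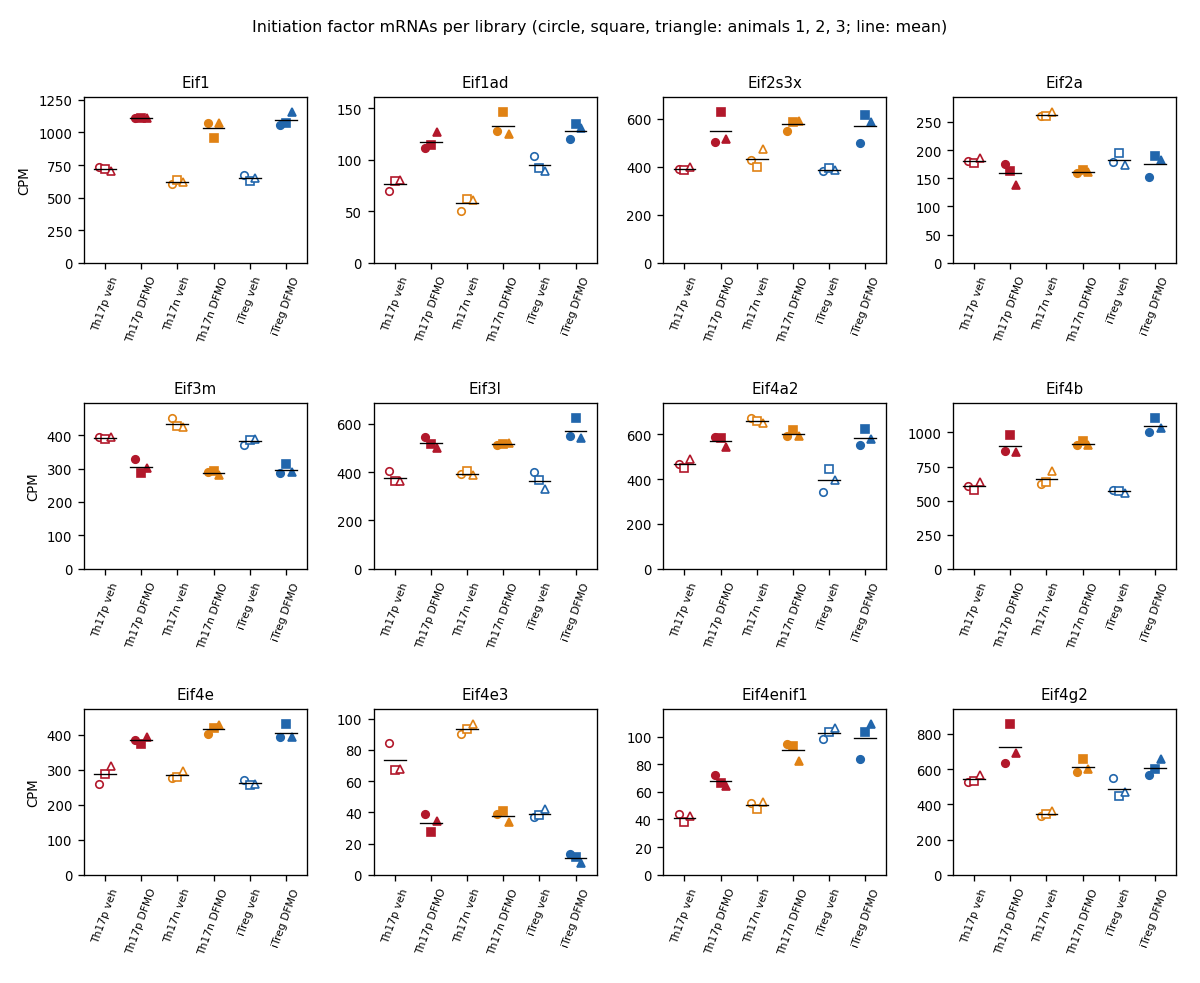
CPM (vertical axis, from 0) of 12 initiation factors in the 18 libraries, by lineage and treatment (horizontal axis). Symbols mark the animals, open symbols are vehicle, filled symbols are DFMO and lines are means of 3 animals: Eif1, Eif4b and Eif4e are higher and Eif3m and Eif4e3 lower with DFMO in each lineage, while Eif2a passed the test as lower in Th17n.

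**Figure D3:**
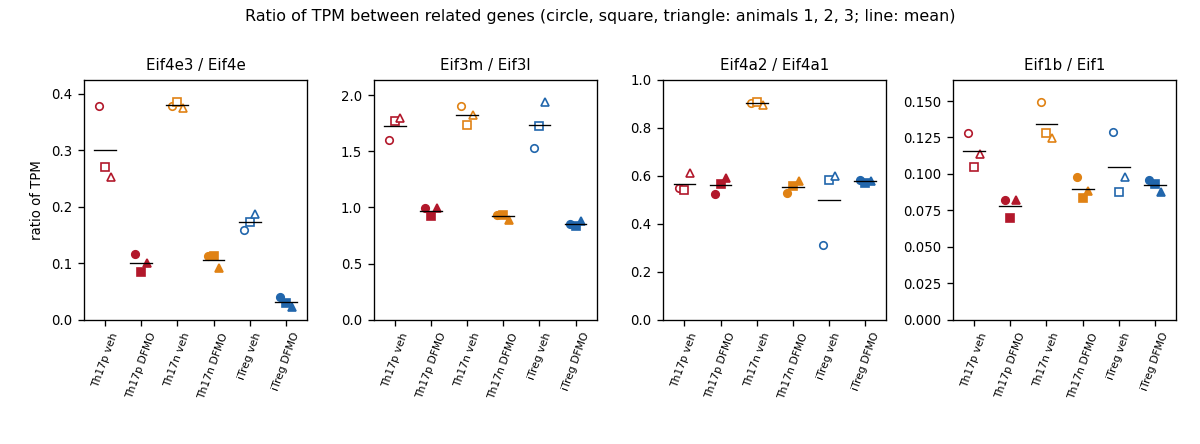
Ratio of TPM (vertical axis, from 0) within a library between related initiation factors, by lineage and treatment (horizontal axis), with a symbol per animal and lines at the mean of 3. Eif4e3 to Eif4e and Eif3m to Eif3l are lower in every DFMO library than in the vehicle libraries of its lineage, and the iTreg vehicle library of animal 1 stands apart for Eif4a2 to Eif4a1 at 0.312.

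The scaffold genes, which bridge eIF4E, eIF4A and eIF3, rose 2 of 3 in Th17p, 3 of 3 in Th17n and 2 of 3 in iTreg. Eif4g2 (chr7:111067750-111083030), which lacks the eIF4E-binding part and serves cap-independent initiation, had 335, 347 and 361 CPM in Th17n with vehicle and 582, 655 and 602 with DFMO. In Th17p it had 526, 533 and 566 and 636, 855 and 693, and in iTreg 551, 445 and 472 and 567, 598 and 656. The Th17n vehicle libraries were the lowest of all, and with DFMO Th17n and iTreg overlapped. This gave log2 fold changes of 0.43 ± 0.10, 0.82 ± 0.10 and 0.31 ± 0.10 (adjusted p = 0.00171, 6.36e-07 and 0.0138), and the Th17p call was lost without animal 2. Eif4g1 (chr16:20668313-20692884), the main scaffold, rose by 0.46 ± 0.10, 0.80 ± 0.10 and 0.33 ± 0.10 (adjusted p = 0.00128, 1.31e-06 and 0.0121). The iTreg calls of both genes were lost without animal 2 or 3, without scaling factors and on either TPM scale. Eif4g3, the other scaffold, rose in Th17n (0.31 ± 0.11, adjusted p = 0.0254), a call lost without animal 1 or 3, and had -0.03 and -0.20 elsewhere.

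Of the genes whose proteins bind eIF4E, Eif4enif1 (chr11:3202392-3244588), known as 4E-T for carrying eIF4E into the nucleus and to P-bodies, rose in the Th17 lineages. It had 43.7, 38.1 and 42.4 CPM in Th17p with vehicle and 72.0, 66.5 and 64.5 with DFMO, and 52.1, 47.2 and 52.7 and 94.7, 93.4 and 82.4 in Th17n. In iTreg it had 98.2, 104 and 106 with vehicle and 83.7, 103 and 109 with DFMO, which overlapped. The log2 fold changes were 0.71 ± 0.10, 0.83 ± 0.10 and -0.06 ± 0.10 (adjusted p = 2.42e-05, 1.14e-06 and 0.696). Eif4ebp2 and Eif4ebp3, repressors that keep eIF4E from eIF4G, had log2 fold changes of 0.36, 0.22 and 0.20 and of -0.24, 0.05 and -0.04 and passed in no lineage, and Eif4ebp3 reached at most 7.21 CPM.

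Eif5b (chr1:37998010-38055579), the GTPase that joins the large subunit, had 126, 117 and 109 CPM in Th17n with vehicle and 157, 144 and 147 with DFMO, 127, 141 and 118 and 142, 128 and 141 in Th17p, and 147, 135 and 135 and 111, 126 and 131 in iTreg. It rose in Th17n (0.09 ± 0.09, 0.35 ± 0.09 and -0.18 ± 0.09 in Th17p, Th17n and iTreg, adjusted p = 0.448, 0.00230 and 0.115), and 16.6% of its windows recur in the neighbouring gene Rev1. Eif6 (chr2:155819832-155826925), which keeps free large subunits from joining too early, had 211, 201 and 218 CPM in Th17n with vehicle and 325, 295 and 303 with DFMO. In Th17p the values were 234, 227 and 231 and 219, 208 and 226, and in iTreg 219, 194 and 206 and 227, 273 and 224. The Th17n libraries with DFMO stood above all others of Eif6. Log2 fold changes came to -0.09 ± 0.08, 0.55 ± 0.08 and 0.23 ± 0.08 (adjusted p = 0.425, 7.63e-06 and 0.0264), and the iTreg call was lost under 8 alternatives, leaving out animal 2 or 3 among them.

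In vehicle, the lineages differed in some initiation factors. These comparisons use the vehicle libraries that the DFMO effects also use. Against Th17p, Th17n had 6 of 46 higher and 9 lower, where 9.47% of all genes were higher and 10.5% lower. The count of 6 is near that share. Without scaling factors the split was 4 and 10, and on log2(TPM + 1) 3 and 12. Eif1a was lower, with a log2 difference of -0.65 ± 0.07 (adjusted p = 7.92e-07), and so was Eif4g2, at -0.64 ± 0.10 (adjusted p = 6.71e-05). Eif2a was higher by 0.53 ± 0.09 and Eif4a2 by 0.50 ± 0.08 (adjusted p = 0.000221 and 0.000132). These 4 passed under every alternative, and the count of 15 became 4 without animal 2, 6 without animal 3 and 7 without animal 1.

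Between iTreg and Th17n in vehicle, 10 of 46 were higher and 11 lower in iTreg, against 18.4% and 18.9% of all genes. Both counts are near these shares. The split of 10 and 11 depends on scaling, since without scaling factors 17 stood higher and 6 lower while all genes had a median of 0.17. Values of log2(TPM + 1) gave 17 and 5, beside a median of 0.15. Eif4enif1 was higher in iTreg by 1.02 ± 0.10 and Eif1ad by 0.72 ± 0.10, while Eif4e3 and Eif4a2 were lower, with log2 differences of -1.25 ± 0.15 and -0.74 ± 0.08 (adjusted p = 1.19e-07, 8.70e-06, 1.25e-06 and 2.72e-07). All 3 scaffolds were higher in iTreg, Eif4g1 by 0.46, Eif4g2 by 0.49 and Eif4g3 by 0.46, the last of which was lost without animal 1. Of the 14 eIF3 genes, Eif3b was higher (0.62 ± 0.11, adjusted p = 8.75e-05) and 6 were lower, from -0.19 for Eif3m to -0.40 for Eif3k. Of these 6, Eif3h passed under every alternative. The count of 21 became 12 without animal 2.

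Against Th17p, iTreg with vehicle had 4 of 46 higher and 3 lower, against 14.5% and 15.7% of all genes. Both counts are below these shares. Eif4enif1 was higher by 1.31 ± 0.10 (adjusted p = 3.48e-09), and Eif4e3 and Eif1a were lower, with log2 differences of -0.90 ± 0.15 and -0.75 ± 0.07 (adjusted p = 7.98e-05 and 2.25e-08). Those 3 passed under every alternative. Eif4ebp2 was higher by 0.62, Eif3b by 0.42 and Eif1ad by 0.32, and Eif4a2 was lower (-0.25). The count of 7 became 3 without animal 1, which dropped Eif4ebp2, Eif3b, Eif1ad and Eif4a2, and without scaling factors 5 were higher and 2 lower.

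Whether DFMO acted differently between lineages was tested on the difference of the 2 effects. Between iTreg and Th17n, 7 effects were more positive in iTreg and 7 more negative, where 6.66% and 5.45% of all genes passed. Those more positive in iTreg were Eif4a2 (0.71 ± 0.11, adjusted p = 0.000398), Eif2a (0.64 ± 0.13), Eif3h (0.54 ± 0.09), Eif3e (0.50 ± 0.09), Eif3k (0.45 ± 0.12), Eif4b (0.40 ± 0.10) and Eif3i (0.31 ± 0.09). The more negative ones were Eif4enif1 (-0.89 ± 0.14, adjusted p = 0.000469), Eif1ad (-0.77 ± 0.14, adjusted p = 0.00132), Eif3b (-0.68 ± 0.15), Eif5b (-0.53 ± 0.12) and the 3 scaffolds Eif4g1, Eif4g2 and Eif4g3 (-0.47, -0.51 and -0.51). Their adjusted p lay between 0.000398 and 0.0370, and Eif4a2, Eif4enif1 and Eif1ad passed under every alternative. Dropping the scaling factors moved the all-gene median to -0.21 and gave 4 more positive and 12 more negative. The log2(TPM + 1) scale, with an all-gene median of -0.25, gave 1 and 18. The count of 14 became 7 without animal 1 and 3 without animal 2.

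**Figure D4:**
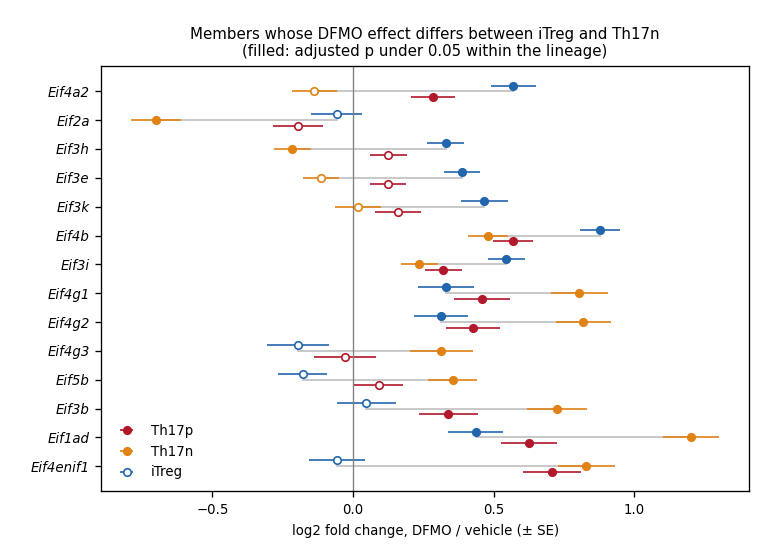
Log2 fold change of DFMO over vehicle (horizontal axis, bars are approximate standard errors, 3 animals a group) for 14 initiation factors. Their effect differed between iTreg and Th17n by the test of the difference, and Th17p is shown beside them. Grey lines join Th17n and iTreg and filled points passed within their lineage: Eif4a2 lies at -0.14 in Th17n and 0.57 in iTreg, and Eif4enif1 at 0.83 and -0.06.

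Between the Th17 lineages 5 effects differed, 2 more positive and 3 more negative in Th17n, where 2.63% and 2.35% of all genes passed. Eif6 (0.64 ± 0.11, adjusted p = 0.00227) and Eif1ad (0.57 ± 0.14, adjusted p = 0.0218) had the more positive effects in Th17n, where both rose, while in Th17p Eif1ad rose and Eif6 had -0.09. Eif2a (-0.50 ± 0.13), Eif4a2 (-0.42 ± 0.11) and Eif3h (-0.34 ± 0.09) had the more negative effects there. Without scaling factors the split was 3 and 2, and on log2(TPM + 1) it was 1 and 0. None of the 5 passed when animal 1 or animal 2 was left out, and Eif6 alone passed without animal 3. Between iTreg and Th17p 2 of 46 effects differed, both more negative in iTreg, which is near the share of all genes. Of all genes, 3.52% passed as more positive and 3.32% as more negative. The 2 effects were those of Eif4enif1 (-0.76 ± 0.14, adjusted p = 0.00226) and Eif4e3 (-0.74 ± 0.22, adjusted p = 0.0482). With the replicate block Eif4b (0.31), Eif1b (0.51), Eif3k (0.31) and Eif3j1 (-0.93) passed as well. With DESeq2 size factors 1 effect was more positive and 1 more negative. Without animal 2 neither Eif4enif1 nor Eif4e3 passed, and without animal 1 or 3 Eif4e3 did not.

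Eif3f (chr7:108934417-108942951), an eIF3 subunit of the MPN domain core, was singled out after its values were seen because it differed by animal. It had 50.4, 66.4 and 104 CPM in Th17p with vehicle, 84.4, 99.8 and 302 in Th17p with DFMO, 85.1, 64.6 and 112 in Th17n with vehicle and 107, 77.5 and 522 in Th17n with DFMO, for animals 1, 2 and 3 in turn. In iTreg the values were 89.4, 115 and 351 with vehicle and 69.1, 56.4 and 185 with DFMO. Animal 3 was the highest of the 3 in all 6 groups, and none of the 75-base windows of Eif3f recurs in another annotated gene. Its log2 fold changes of 1.14 ± 0.82, 1.43 ± 0.82 and -0.84 ± 0.81 did not pass, and with the replicate block the Th17n value became 0.99 (adjusted p = 0.0471), and the effect in iTreg minus that in Th17n -1.78 (adjusted p = 0.0417). The block also brought in Eif2b5 for that difference (-0.90, adjusted p = 0.0124). In vehicle, iTreg against Th17p, it brought in Eif1b, Eif3f and Eif3j1 (adjusted p = 0.0482, 0.0391 and 0.0437), and iTreg against Th17n, Eif1b and Eif2b5 (adjusted p = 0.0396 and 0.00820), while Eif2b4 lost its call there.

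**Figure D5:**
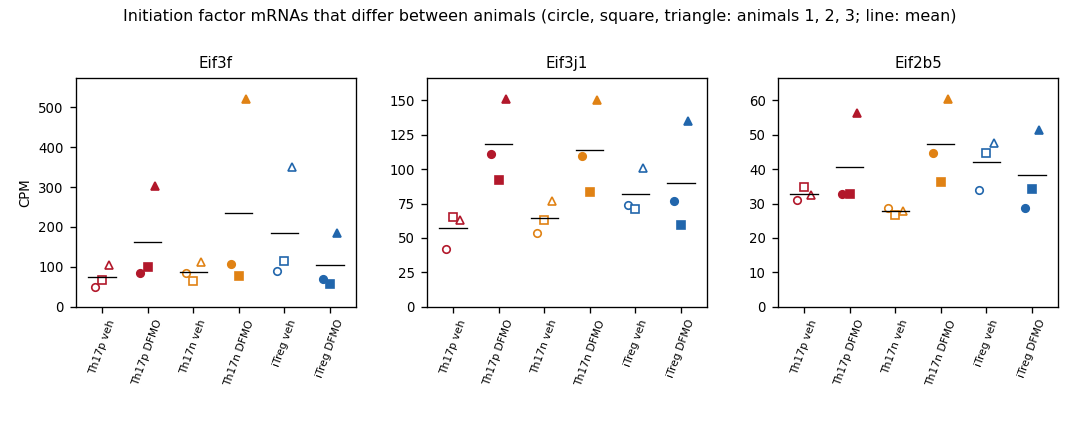
CPM (vertical axis, from 0) of Eif3f, Eif3j1 and Eif2b5 in the 18 libraries by lineage and treatment (horizontal axis), with a symbol per animal, open for vehicle and filled for DFMO, and lines at the mean of 3. The triangles of animal 3 are the highest Eif3f values in all 6 groups and reach 522 CPM in Th17n with DFMO.

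Genes around the initiation factors were counted from lists chosen for their role in translation. The counts stand beside the shares of all genes that rose (15.9%, 22.8% and 18.3% in Th17p, Th17n and iTreg) and fell (17.1%, 23.7% and 19.2%). Of 23 further regulators of initiation, 7 rose and 4 fell in Th17p, 13 rose and 7 fell in Th17n, and 10 rose and 3 fell in iTreg, where the falls are near or below these shares in Th17p and iTreg. Pdcd4, an inhibitor of eIF4A, had 88.5, 77.1 and 65.1 CPM in Th17n with vehicle and 21.4, 25.3 and 17.7 with DFMO, and its log2 fold changes were -0.86 ± 0.14, -1.84 ± 0.14 and -0.02 ± 0.13 (adjusted p = 0.000114, 3.12e-09 and 0.932). Paip2, a repressor of the poly(A)-binding protein, changed by -0.56, -0.75 and -0.15 and passed in the Th17 lineages, and its activating counterpart Paip1 by 0.35, 0.77 and 0.87 and passed in Th17n and iTreg. Pabpc1, that binding protein itself, had 0.26, 0.07 and 0.43, and the helicase Ddx3x 0.52, 1.17 and 0.23, the first called in Th17p and iTreg and the second in the Th17 lineages. The Th17p call of Pabpc1 was lost when any 1 animal was left out and that of Ddx3x without animal 2. Ppp1r15a, which directs the removal of phosphate from eIF2 alpha, fell in each lineage, with log2 fold changes of -0.98 ± 0.17, -0.90 ± 0.17 and -1.17 ± 0.18 (adjusted p = 0.000208, 0.000259 and 4.60e-05).

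Of 9 elongation factors, 6 rose in Th17p, 5 rose and 1 fell in Th17n, and 7 rose in iTreg. The eEF1 exchange factor subunits Eef1d, Eef1g and Eef1b2 rose in all 3 lineages, by 0.76, 0.84 and 1.06, by 0.68, 0.37 and 0.86 and by 0.51, 0.29 and 0.75. Eef1a1, which brings tRNA to the elongating ribosome, rose in Th17p and iTreg (0.23, -0.08 and 0.89 in Th17p, Th17n and iTreg), the former lost without animal 1 or 3, and the Th17n call of Eef1b2 was lost without animal 3. Eef1e1, an adaptor of the tRNA synthetase complex, had 0.47, 0.74 and 0.46 and rose in all 3. Of 6 termination and recycling genes, 3 rose in Th17p and 3 in Th17n, while in iTreg 1 rose and 1 fell, which is near the shares of all genes. Abce1, the recycling ATPase, rose by 0.51, 0.75 and 0.66, and the release factors Etf1 and Gspt1 rose in the Th17 lineages (by 0.54 and 0.67 for Etf1 and 0.56 and 0.75 for Gspt1). Pelo, a ribosome rescue factor, fell in iTreg (-1.65 ± 0.45, adjusted p = 0.00615), a call lost without animal 1 or 2. The mitochondrial factors Mtif2 and Mtif3 had -0.60, -0.37 and -0.09 and -0.32, -0.42 and -0.01, called in Th17p for Mtif2 and in Th17n for Mtif3, the former lost without animal 3 and the latter without animal 2 or 3.

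Of 14 tested genes of the integrated stress response, the programme switched on when eIF2 is phosphorylated, 4 fell in Th17p, 7 fell and 3 rose in Th17n, and 8 fell and 2 rose in iTreg, beside 17.1%, 23.7% and 19.2% of all genes that fell. The rises are near or below the shares of all genes. Ddit3, its transcription factor CHOP, had 48.6, 85.7 and 89.4 CPM in iTreg with vehicle and 13.8, 12.7 and 15.6 with DFMO, with log2 fold changes of -0.75 ± 0.17, -1.71 ± 0.17 and -2.41 ± 0.19 (adjusted p = 0.00203, 2.87e-07 and 2.19e-08). Trib3, a pseudokinase induced by it, fell, with log2 fold changes of -1.12 ± 0.21 in Th17p and -2.75 ± 0.23 in iTreg (adjusted p = 0.000491 and 8.63e-08) and an adjusted p of 0.000866 in Th17n, as did Asns, the asparagine synthetase (-0.63, -0.71 and -0.70). Vldlr, a lipoprotein receptor, fell (-1.35, -1.44 and -3.06), a call lost in Th17n without animal 1, and Slc7a11, the cystine transporter, rose in Th17n (0.89 ± 0.18, adjusted p = 0.000435). Atf4, the factor translated under this response, is named after its values were seen and passed in no lineage (-0.21, 0.08 and 0.03).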

How the data were processed

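RNA-seq of 18 libraries, each sequenced in 2 runs, was analysed. Reads were aligned with Bowtie2 and quantified with RSEM on GRCm38.p3, per the submitters' processing notes. For versions, gene annotation and strand setting, nothing is stated in the sources used here. The authors deposited, per gene and run, expected counts (12.2% not whole) and TPM, in which the listed genes held 72.4% to 80.5% of the scale. Every column matched 1 sample.

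Expected counts of the 2 runs were summed and rounded, and TPM averaged. Runs of a library differed by a chi-square per degree of freedom of 1.15 to 1.54, and animals of a group by 3.64 to 12.1. Library totals of 8307662 to 13986943 counts set the precision, and floors cover counting error only. R 4.3.3 with edgeR 4.0.16 fitted all 18 libraries at once (TMM scaling, filterByExpr, robust quasi-likelihood test), and p-values were adjusted over all 11526 genes tested. The pipeline was tested on simulated data. Errors of log2 fold changes are standard errors from that fit. Transcript windows of 75 bases were compared across annotated genes of GRCm38, and gene positions are from the same annotation.

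The labels give each animal an ID, so the lineages and treatments are paired by animal: residuals of the same animal had a median correlation of 0.121 over 45 pairs of libraries, against -0.06 over 90 pairs of different animals. Because group means were removed first, the second value largely follows from the first and is no separate evidence. The main fit has no block, and the block's value stands beside each result it changed. Alternatives were DESeq2 1.42.0, its size factors, no scaling factors, no filter, each run alone, only the groups compared, limma 3.58.1 on log2(TPM + 1) and log2(TPM + 0.1), each animal left out, and the replicate block. Library values are printed for the 3 called genes with the largest change in each comparison with a mean log2 CPM of at least 2, and for the gene with the smallest p of each complex. Eif3f, Eif3l, Eif4e, Eif4a1 and Atf4 were added after their values were seen. The initiation factors and all gene lists were chosen with earlier results of these data known. A comparison of protein sequences was planned and not run. The summed markers of the Th17 lineage are not reported here.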

Additional observations from a re-analysis of the deposited data

Results flagged for a closer look

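For 5, 14 and 2 initiation factors in the 3 contrasts of lineages the DFMO effect differed between lineages by a test of the difference itself, and the values are differences of log2 fold changes in edgeR. Of these, 0, 3 and 0 were called under every alternative. Of all genes, 2.63%, 6.66% and 3.52% passed as more positive and 2.35%, 5.45% and 3.32% as more negative. Between Th17n and Th17p, Th17n had the more positive effect for Eif6 (0.64) and Eif1ad (0.57) and the more negative one for Eif2a (-0.50), Eif4a2 (-0.42) and Eif3h (-0.34).

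Between iTreg and Th17n, iTreg had the more positive effect for Eif4a2 (0.71), Eif2a (0.64), Eif3h (0.54), Eif3e (0.50), Eif3k (0.45), Eif4b (0.40) and Eif3i (0.31). It had the more negative effect for Eif4enif1 (-0.89), Eif1ad (-0.77), Eif3b (-0.68), Eif5b (-0.53), Eif4g3 (-0.51), Eif4g2 (-0.51) and Eif4g1 (-0.47).

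Between iTreg and Th17p, the effect in iTreg was more negative for Eif4enif1 (-0.76) and Eif4e3 (-0.74), a count near the share of all genes. All of these comparisons use the same 3 animals, and those that share a lineage share its libraries.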

How the results depend on the processing

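Of the counts of initiation factors called, 98 stayed within 1.5 times the main count and 19 moved. Th17n against Th17p in vehicle had 15, which became 9 without the filter on low counts, 9 with run 1 alone and 4 to 7 with an animal left out. For iTreg in vehicle the counts with an animal left out were 12 to 15 against Th17n (main 21) and 3 to 7 against Th17p (main 7). For the DFMO effect in Th17n minus Th17p (main 5) both TPM scales gave 1, and leaving out an animal gave 0 to 1. In iTreg minus Th17n (main 14) leaving out an animal gave 3 to 12. In iTreg minus Th17p (main 2) DESeq2 gave 4, only the groups compared 1, the replicate block 6 and leaving out an animal 0 to 2. The 14 genes higher in all 3 lineages became 9 without scaling factors, 8 on log2(TPM + 1), 8 on log2(TPM + 0.1) and 7 to 13 with an animal left out; this count under the alternatives was chosen after seeing the data. Among values called in the main fit or in the alternative, the direction turned for 4. These were Eif1 in iTreg minus Th17n (-0.29 on both TPM scales) and Eif4h with DFMO in iTreg (-0.0189 on log2(TPM + 1) and -0.0190 on log2(TPM + 0.1)), and the cause was not tested. Of the single values, 5743 stayed on the same side of the threshold, 343 lost and 150 gained a call. Direction was not checked for values that passed in neither fit. The replicate block changed no call of an initiation factor other than those named beside the results. Over all genes, calls fell without animal 2 from 3797 to 2416 for DFMO in Th17p, from 4329 to 2488 in iTreg and from 3477 to 2289 for iTreg against Th17p. Th17n against Th17p went from 2303 to 1346 without animal 1 and 944 without animal 2, and iTreg against Th17n from 4301 to 2784 and 2861. Th17n minus Th17p went from 574 to 382 on log2(TPM + 0.1) and to 97, 27 and 331 without animals 1, 2 and 3. iTreg minus Th17n went from 1396 to 2563 and 2463 on the TPM scales and to 388 and 277 without animals 1 and 2. iTreg minus Th17p went from 789 to 1330 on log2(TPM + 1), 1237 with the block, and 386 and 107 without animals 1 and 2. Eif3j2 and Eif4ebp3 had at most 8.15 and 7.21 CPM, the lowest maxima of the 46 tested, and the part of depth in their results was not tested. Splits by scaling stand beside the results.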
